A study of Mus musculus with 80 samples.

Results

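The genes described here encode the proteins of the cytosolic ribosome. They were taken from the table of raw read counts per gene by symbol: every row named Rpl or Rps with a number and at most an a or x after it, the 3 stalk genes Rplp0, Rplp1 and Rplp2, and Rpsa, leaving out names ending in -ps and asking for at least 10 counts in at least 4 libraries. All 76 rows with such a symbol passed, of 78275 rows in the table. Of these, 30 belong to the small (40S) subunit and 46 to the large (60S) subunit. Symbols outside the pattern, such as Rps3a1 and Fau, were not members. The measurements are stranded poly(A) RNA-seq of mouse liver, 80 libraries of C57BL/6J mice aged 8 to 12 weeks kept in constant darkness, 1 mouse per library. Livers were collected every 4 h from circadian time (CT) 8 to CT44, which is 10 times. Controls ate ad libitum throughout (40 libraries), and in the fasted group (40 libraries) food was taken away at CT10, so fasted mice had been without food for 2 h at CT12 and 34 h at CT44. Fasted mice at CT8 had therefore not yet been fasted. Each treatment and time holds 2 males and 2 females. Treatment and sex were read from the sample titles, because other labels contradict the titles, for the sex of 40 libraries and the treatment of 40.

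A ribosome carries 1 copy of nearly every ribosomal protein, so cells make these proteins in close to equal amounts and their genes are usually regulated together. Their mRNAs belong to the TOP class (terminal oligopyrimidine): the mRNA begins with a cytosine at the cap, followed by an unbroken run of pyrimidines. The kinase mTORC1 controls how well TOP mRNAs are translated, and Larp1 binds and stores them when nutrients are short. In the liver, food withdrawal is known to lower ribosome production and to place ribosomal protein mRNAs in light, poorly translated fractions. The present data count mRNA, not its translation.

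The first bases of the transcripts are shown because this element defines the class. RefSeq promoters (build GRCm38.p6) could be matched by symbol to 56 of the 76 genes, and 20 were not used for this. A C at an annotated start followed by C or T to a run of at least 5 bases, read on the strand of the gene, was found at a start of 13 of the 56 genes (23.2%), against 813 of 27025 genes of all kinds (3.01%). No match says only that these letters are not at the annotated start. Each window has 10 bases before the start and 20 bases from it, and exon ends were not looked up. Capitals mark the start cytosine with its run. The first 6 are genes with the run and the last 2 are Rps28 and Rps2, which had the highest and the lowest mean change of the 76, have a C at the start and have a shorter run.
Rpl15, chr14:18270967-18270996, minus strand: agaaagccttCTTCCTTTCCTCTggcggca
Rps6, chr4:86857348-86857377, minus strand: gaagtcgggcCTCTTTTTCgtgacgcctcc
Rpl35a, chr16:33056472-33056501, plus strand: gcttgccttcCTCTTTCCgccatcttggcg
Rps27, chr3:90213629-90213658, minus strand: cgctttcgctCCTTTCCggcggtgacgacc
Rpl14, chr9:120571507-120571536, plus strand: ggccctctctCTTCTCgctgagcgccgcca
Rplp2, chr7:141447641-141447670, plus strand: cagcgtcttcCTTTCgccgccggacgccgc
Rps28, chr17:33824543-33824572, minus strand: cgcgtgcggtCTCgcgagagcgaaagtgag
Rps2, chr17:24720053-24720082, plus strand: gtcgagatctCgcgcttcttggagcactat

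Libraries held 25534901 to 59927771 counts (median 42303883), and the 76 genes took 0.736% to 1.18% of them (median 0.871%). Xist and Ddx3y matched the titled sex of 80 of 80 libraries, and the hepatocyte markers Alb and Apoa1 were high in all. A few libraries stood apart. In control CT8 female 2, the ribosomal RNA row Rn18s-rs5 took 31.3% of the counts (at most 4.88% elsewhere) and 6 lymphocyte markers summed to 161.6 CPM (counts per 1000000 scaled counts), with at most 46.13 elsewhere. In fasted CT40 female 2 and fasted CT44 female 1, the mean log2 CPM of the 76 genes was the highest of the 80 libraries, at 6.83 and 6.90. These same mice had the lowest erythroid marker sums of the 80 libraries (33.03 and 41.85 CPM), and fasted CT40 female 2 also had the lowest Kupffer cell sum (126.4 CPM). Fasted CT40 female 1 and fasted CT44 female 2 came next in the erythroid sums, at 43.60 and 45.17 CPM. The cholangiocyte sum was lowest in fasted CT44 female 1 (3.29 CPM) and was 4.38 CPM in fasted CT40 female 2. For some results that rest on these libraries, values without them are also given. Other values include them throughout, such as those within females, of named genes at single times, of related gene lists and of correlations between genes. CPM are scaled with TMM factors, whose median was 1.029 in controls and 0.962 in fasted livers from CT12 on, so a value relative to all counts is lower in fasted livers than the scaled one.

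In control livers the 76 genes spanned a wide range of levels per kb of transcript, with most of them close together. The middle 50% of genes lay between 82.4 and 164 CPM per kb. The highest was Rplp1, which encodes an acidic protein of the stalk where elongation factors dock, at 449.7 CPM per kb (range 371.4 to 530.9 over 40 control livers). Rpl41, which encodes the shortest ribosomal protein, followed at 339.1, and Rps18, Rpl10, Rps2, Rpl4 and Rps15 lay between 264.8 and 278.5. The lowest were Rpl13a (6.94), Rps10 (1.76) and Rpl24 (0.783), whose rows had a median of 315, 64.5 and 22.5 counts per library. Of the 75 pairs of neighbours in this order, 73 had ranges that overlapped, so their order was not resolved between mice. The exceptions were the steps from Rpl18 down to Rpl21 and from Rpl13a down to Rps10.

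These rows are not equally well separated from their retrocopies, since ribosomal protein genes have many processed pseudogenes. The share of 76-base words of the transcript that also occur in transcripts of other genes ran from 0%, as for Rps3, to 98.5% for Rps27. Rows named as pseudogenes of Rps10 held 1583% of the counts of Rps10 itself, so its level is uncertain. For Rpl24 no counts were found in rows with its pseudogene name, and how reads were divided between its row and others was not tested.

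**Figure D1:**
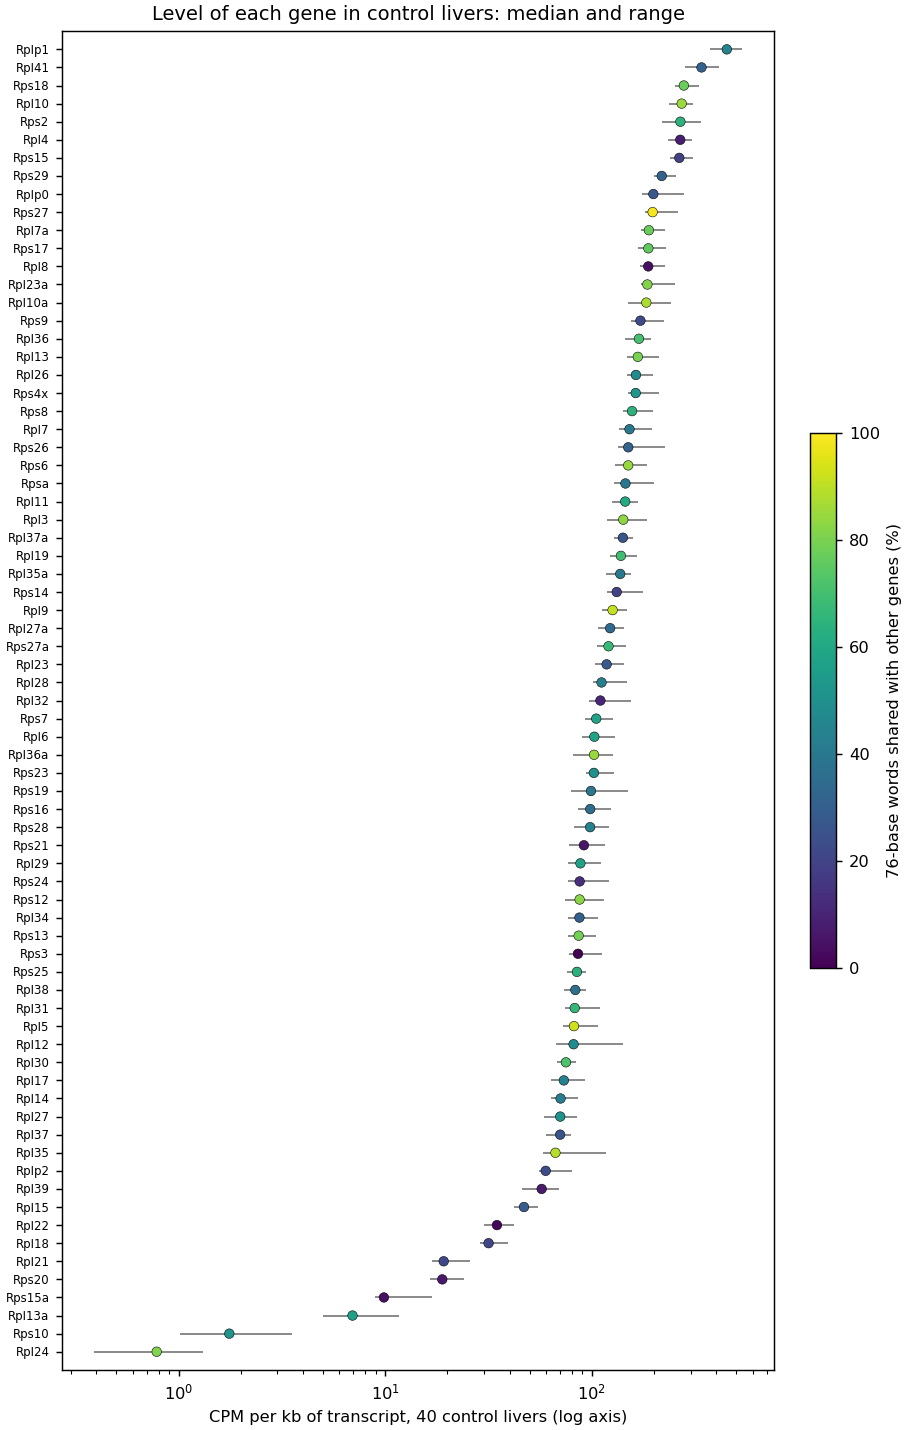
Level of 73 of the 76 genes in the 40 control livers, as CPM per kb of transcript on a log axis (point, median; line, lowest to highest mouse), coloured by the share of 76-base words shared with other genes. Most genes lie near 100 CPM per kb, Rplp1 is highest at 449.7, and Rps10 and Rpl24 are the lowest at 1.76 and 0.783.

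Over the day, the ribosomal protein mRNAs of fed livers changed little. A 24 h cosine was called for 7 of 76 genes (41.8% of all genes tested), with a median peak-to-trough size of 0.08 on the log2 scale. The clearest was Rpl22, an RNA-binding protein of the large subunit known for its part in T cell development. In control livers Rpl22 averaged 79.45 CPM at CT32, against 65.61 at CT20 and 63.95 at CT40. Its 4 mice at CT32 (77.96 to 82.97 CPM) did not overlap with those at CT20 (61.68 to 68.23). The fitted peak-to-trough size was 0.26 (log2), with its peak at CT7.8 (adjusted p = 8.63e-08). Rps2 ran the other way, with its peak at CT19.5 (0.15, adjusted p = 0.0172), from 239.1 to 292.0 CPM at CT32 to 300.9 to 367.2 at CT20. Rpl3, which sits near the peptidyl transferase centre, had a size of 0.19 (adjusted p = 0.0165), and Rps27 and Rpl34 had 0.14 and 0.15. Rps10 had the largest size (0.69, adjusted p = 0.00534), at 0.896 to 2.59 CPM from CT12 on. Without control CT8 female 2 the number called was 13, and 22 were called when the controls of CT12 to CT44 were fitted with a linear change over time (42.6% of all genes tested). Leaving out the mice of 1 sex and number gave 2 to 9 genes, the fewest without the males numbered 2.

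Females and males differed in the controls for 13 of the 76 genes. Females were higher for 5 genes (20.6% of all genes) and lower for 8 (18.6%). Rpl41 was at 164.4, 184.8 and 228.2 CPM in control females (lowest, median and highest of 20) and at 178.3, 211.9 and 239.6 in control males, so the ranges overlapped, and females were lower by a log2 difference of -0.16 (SE 0.031, adjusted p = 4.66e-05). Rplp1 (-0.17, adjusted p = 0.000426) and Rpl35a (-0.14, adjusted p = 0.000268) were also lower in females, and so were Rps21 and Rplp0, both at -0.13. Rps28 (0.13), Rpl7 (0.11), Rpl3 (0.11), Rpl22 (0.08) and Rpl21 (0.07) were higher in females. Without the males numbered 1, 0 were higher and 1 was lower, and without the males numbered 2, 0 and 6. Without the females numbered 2 there were 2 and 10, without control CT8 female 2 there were 2 and 15, and with library totals 10 and 6. Markers of other cell types moved in the same contrast. All 6 Kupffer cell, 6 stellate cell and 6 lymphocyte markers and 5 of 6 sinusoidal endothelial markers were higher in females, and 5 of 5 erythroid markers were lower. Their sums were 264.5 to 666.1 CPM in control females and 183.7 to 381.3 in control males for Kupffer cells, 348.5 to 560.5 and 294.4 to 403.1 for stellate cells, and 399.0 to 492.5 and 325.8 to 412.0 for sinusoidal endothelium. For lymphocytes they were 16.37 to 161.6 and 9.85 to 23.62, and for erythroid cells, without overlap, 53.39 to 116.4 and 197.2 to 287.1. Their part in the result was not tested.

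Averaged over CT12 to CT44, fasting moved many ribosomal protein mRNAs by small amounts in both directions. Of the 76 genes, 34 were higher in fasted livers (29.5% of all genes tested) and 14 were lower (32.9%), while 28 passed in neither direction. Their median change was 0.05 on the log2 scale, against -0.02 over all genes, and the range ran from -0.18 to 0.31. No gene passed edgeR's test for a change of at least 1.5 times in either direction, and 0 had an unadjusted p under 0.05 in that test. In the small subunit 16 of 30 rose and 5 fell, and in the large subunit 18 of 46 rose and 9 fell. This split depended on the scaling. Relative to plain library totals, 14 genes were higher (20.8% of all genes) and 30 lower (42%), with a median of -0.04, and the median of all genes then stood at -0.11, below that of the 76 genes. Without the males numbered 1, 19 were higher and 6 lower, and without the males numbered 2, 20 and 8. In a piece of tissue, fewer cells of a type and less RNA per cell cannot be told apart. Kupffer cell markers (5 of 6), cholangiocyte markers (4 of 5) and lymphocyte markers (3 of 6) were lower in fasted livers in the same test, with none higher. Of 6 markers each, hepatocyte markers had 4 higher and 2 lower, sinusoidal endothelial markers 3 and 2, and stellate cell markers 3 and 3. Erythroid markers had 0 higher and 2 of 5 lower, and neutrophil markers 0 and 0 of 5. From CT12 on, the Kupffer cell sums were 183.7 to 666.1 CPM in controls and 126.4 to 405.0 in fasted livers, the cholangiocyte sums 6.19 to 20.56 and 3.29 to 18.64, and the lymphocyte sums 9.85 to 46.13 and 8.34 to 27.29. Their part in the result was not tested.

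Rps28, a protein of the head of the small subunit, rose most. Its level was 35.64, 42.83 and 48.75 CPM in control livers (lowest, median and highest of 36 from CT12 on) and 38.20, 52.01 and 89.05 CPM in fasted ones, a log2 change of 0.31 (SE 0.032, adjusted p = 1.8e-11). Rps27, a zinc finger protein of the small subunit, went from a median of 67.37 to 81.70 CPM (0.29, SE 0.030, adjusted p = 1.01e-11). Rps9, which lies at the mRNA entry channel, went from 157.0 to 181.7 CPM (0.21), and the stalk protein Rplp2 from 57.98 to 66.16 (0.20). In these 4 genes the fasted and control ranges overlapped, with the highest values in fasted mice.

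Rps2, another protein of the mRNA entry channel, fell most. Its level was 239.1, 293.8 and 367.2 CPM in controls and 221.9, 262.3 and 329.7 CPM in fasted livers, a log2 change of -0.18 (SE 0.023, adjusted p = 9.72e-09). Rpl35a (-0.15) and Rpl39 (-0.15), the latter a small protein lining the exit tunnel and encoded on the X chromosome, also fell. The stalk protein Rplp1 fell from a median of 224.4 to 204.0 CPM (-0.14, adjusted p = 2.4e-05), and Rpl12, at the base of the stalk, had a change of -0.13 (adjusted p = 0.00574). The stalk thus did not move as a unit: Rplp2 was higher, Rplp1 was lower, and Rplp0, which anchors both, had 0.06 (adjusted p = 0.0707). With library totals all of Rps2, Rpl35a, Rpl39, Rplp1 and Rpl12 were still lower.

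Members with roles outside the ribosome or in its control moved in both directions as well. Rps6, the substrate of the S6 kinases, rose by 0.17 (adjusted p = 6.73e-07), from a median of 131.5 to 143.4 CPM. Rpl5 and Rpl11 form a particle with 5S ribosomal RNA that binds Mdm2. Rpl5 rose by 0.19 (adjusted p = 6.43e-08), whereas Rpl11 had -0.01 (adjusted p = 0.753). Rps27a, made as a fusion with ubiquitin, had 0.06 (adjusted p = 0.0412), and Rpsa, also known as the laminin receptor, had -0.04 (adjusted p = 0.25). Rps24, whose mRNA has alternative 3' exons, fell by 0.08 on the log2 scale (adjusted p = 0.00359), and Rpl13a had 0.13 (adjusted p = 0.0164) at 5.24 to 10.99 CPM. Of the 4 genes on the X chromosome, Rpl39 and Rps4x (-0.06, adjusted p = 0.0137) were lower, and Rpl10 (-0.01) and Rpl36a (0.02) passed in neither direction.

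Genes with and without the pyrimidine run rose and fell. Over all genes tested, 29.5% rose and 32.9% fell. Of the 13 genes with the pyrimidine run at an annotated start, 6 rose and 3 fell (median 0.03), and of the 43 without it 18 rose and 8 fell (median 0.05). The printed runs of Rps27, Rps6, Rpl14 and Rplp2 belong to genes that rose, and those of Rpl35a and Rpl15 to genes that fell. Across the 76 genes, the mean change had a Pearson r of -0.04 with log2 transcript length, -0.08 with the level per kb and 0.08 with the share of words in common with other genes. These are descriptions across genes of the same libraries. Of the 34 genes sharing at least 50% of their words, 16 rose and 4 fell, and of the other 42, 18 rose and 10 fell.

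**Figure D2:**
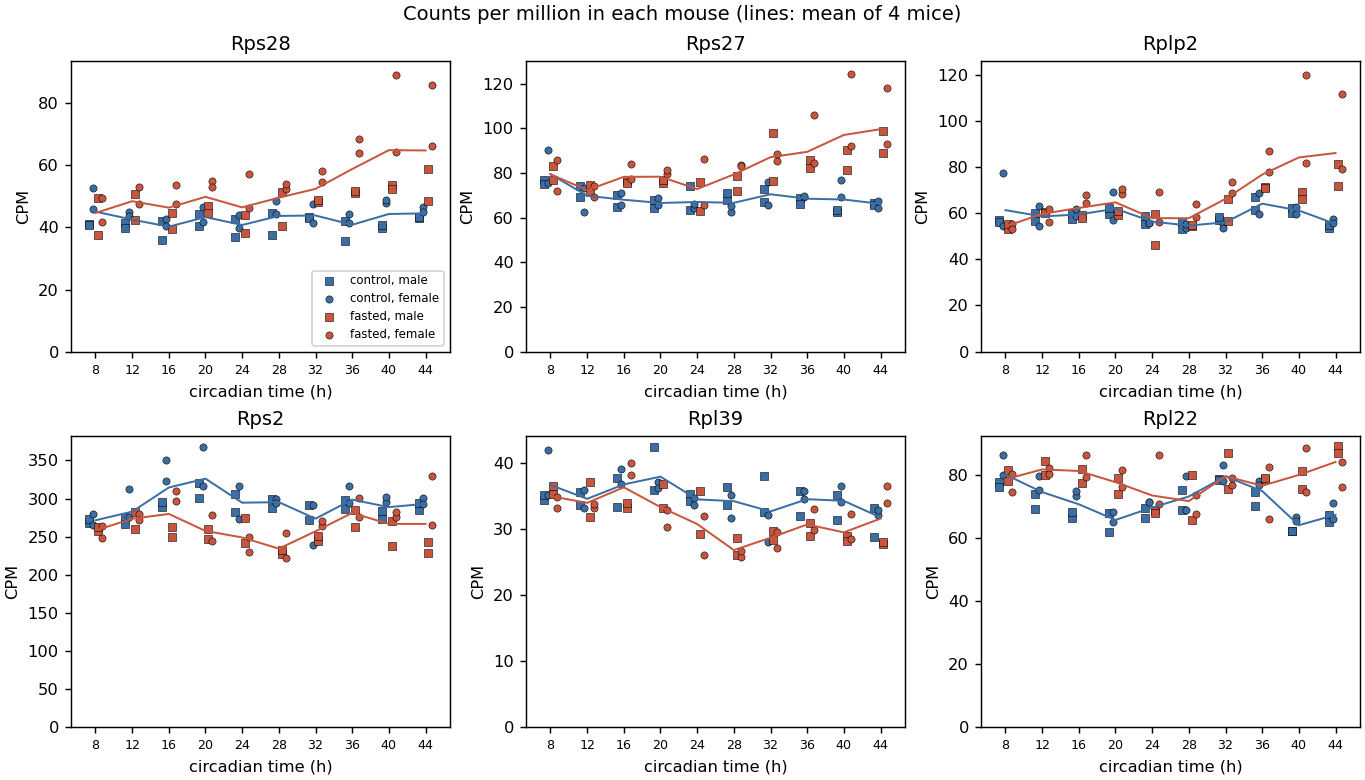
CPM in each mouse against circadian time for Rps28, Rps27, Rplp2, Rps2, Rpl39 and Rpl22 (blue, control; red, fasted; squares, males; circles, females; lines, mean of 4 mice). Rps28, Rps27 and Rplp2 rise late in fasted livers, with means of 64.78, 99.64 and 86.09 CPM at CT44 against 44.53, 66.20 and 55.34 in controls, and Rpl22 keeps to means of 71.6 to 84.0 CPM while the controls dip at CT20 and CT40.

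The calls differed from time to time. At CT8, before food removal, 0 of the 76 genes were called in either direction by edgeR (0.118% of all genes higher and 1.21% lower), with 2 genes at an unadjusted p under 0.05. Without the females numbered 1, 9 genes were lower at that time, and the control female then left is control CT8 female 2. Without control CT8 female 2, 0 were called at CT8, and the number of genes with a positive difference went from 14 to 64 and the median from -0.03 to 0.05. At CT12, after 2 h, again 0 genes were called (0.92% and 0.684%), with 1 gene at an unadjusted p under 0.05, and in the limma-voom test the counts at both times were 0 as well. At CT16, Rpl22 alone was higher (11.5%) and no gene was lower by edgeR or limma-voom (11.9%), with 1 lower at an unadjusted p under 0.05. Fasted livers at that time held 77.49 to 86.35 CPM of Rpl22 and controls 66.34 to 74.74, without overlap (0.20, adjusted p = 0.0234). No gene was called higher at CT16 without the males numbered 1, the males numbered 2 or the females numbered 2, and with library totals 0 were higher and 4 lower.

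From CT20 to CT28, after 10 to 18 h without food, more genes fell than rose in the fit of all mice. At CT20 there were 3 genes higher (17.5%) and 8 lower (19.1%), at CT24 there were 0 (12.2%) and 4 (11.9%), and at CT28 there were 1 (9.88%) and 11 (11.1%). At CT20 and CT24 the lower genes were thus a smaller share of the 76 than of all genes. The medians of the 76 genes at the 3 times were -0.03, -0.02 and -0.05, against -0.03, -0.01 and 0.01 over all genes. The 0 higher genes at CT24 by edgeR were also 0 by limma-voom and at an unadjusted p under 0.05. At CT20, CT24 and CT28, 2, 0 and 2 genes were lower without the males numbered 1 and 0, 0 and 1 without the males numbered 2, with 0 higher at each time in both. Without the females numbered 1 there were 2, 6 and 14 lower and 5, 0 and 0 higher, so rises were the more numerous at CT20. Without the females numbered 2 there were 16, 1 and 5 lower and 2, 3 and 1 higher, so rises were the more numerous at CT24. Rps2 was lower at all 3 times: at CT20 its fasted livers had 244.5 to 278.1 CPM and its controls 300.9 to 367.2, again without overlap (-0.34, SE 0.070, adjusted p = 0.000128), and at CT28 it had -0.33. Rps29, a small zinc finger protein, was lower at the same 3 times, from 82.22 to 96.94 CPM in controls to 75.14 to 79.51 in fasted livers at CT20. At CT28 Rpl39 had -0.35, Rplp1 -0.32, Rpl23a -0.26 and Rpl35a -0.25. With library totals the falls were more, with 37 genes lower at CT20 (26.1% of all genes), 23 at CT24 (16.8%) and 13 at CT28 (11.1%). The median of all genes then moved by more than 0.1 at CT20 and CT24, to -0.18 and -0.13. The medians of the 76 genes were then -0.18 and -0.14, close to those of all genes.

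From CT32 on, after 22 h without food, more genes rose than fell in the fit of all mice. At CT32 there were 11 genes higher (8.4%) and 0 lower (9.3%), at CT36 there were 15 (12.8%) and 0 (14%), at CT40 there were 27 (18.7%) and 2 (21.2%), and at CT44 there were 31 (18.7%) and 2 (20.7%). At CT32 and CT36 limma-voom also found 0 lower genes, and 2 were lower at an unadjusted p under 0.05 at each time. With all libraries in, the median change of the 76 genes went from 0.10 at CT32 to 0.15 at CT44. Without fasted CT40 female 2 and fasted CT44 female 1 the median did not grow. It was then 0.10, 0.10, 0.09 and 0.06 at CT32, CT36, CT40 and CT44. At CT44, Rplp2 had 53.53 to 57.58 CPM in controls and 71.90 to 111.8 in fasted livers (0.63, SE 0.095, adjusted p = 7.31e-07), and Rps27 had 64.56 to 67.70 and 88.82 to 118.0 (0.59, adjusted p = 1.01e-06). In both genes each of the 4 fasted mice was above each of the 4 controls. Rpl35a and Rplp1 were still lower at that time, at -0.21 and -0.24. The 2 fasted females named above weigh on CT40 and CT44. Without them, 54 of the 76 genes had a positive change at CT40 and 56 at CT44, against 60 and 67 with all mice. Over all genes the medians were then -0.03 and -0.05. Over CT32, CT36, CT40 and CT44 the higher genes numbered 0, 2, 7 and 20 without the males numbered 1 and 0, 1, 14 and 8 without the males numbered 2, with 0 lower at CT32 in both. They numbered 11, 4, 48 and 20 without the females numbered 1 and 9, 33, 16 and 49 without the females numbered 2. With library totals, 1, 6, 17 and 16 were higher and 3, 3, 8 and 6 lower at these 4 times. Of all genes, 5.24%, 8.8%, 14.5% and 12.8% were then higher and 11.2%, 16.6%, 24.2% and 25.4% lower. The medians of the 76 genes were then 0.03, 0.02, 0.06 and 0.04, against -0.07, -0.08, -0.12 and -0.15 over all genes.

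**Figure D3:**
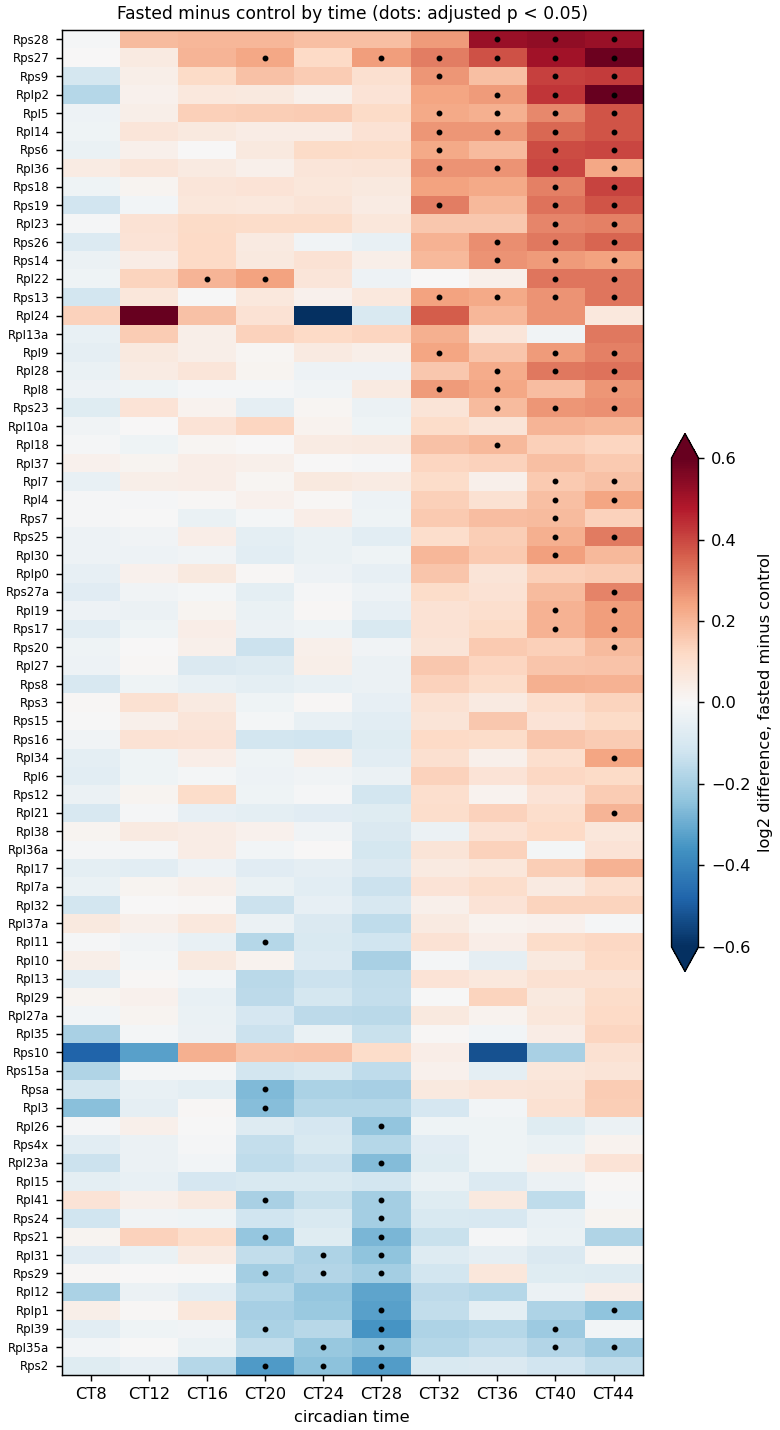
Log2 difference of fasted minus control livers for 73 of the 76 genes (rows, ordered by mean change) at each circadian time (columns), with a dot where the adjusted p was under 0.05. Columns CT8 and CT12 hold no dots, CT28 holds 11 for lower genes near the foot, and CT44 holds 28 for higher genes, most of them in the upper rows.

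**Figure D4:**
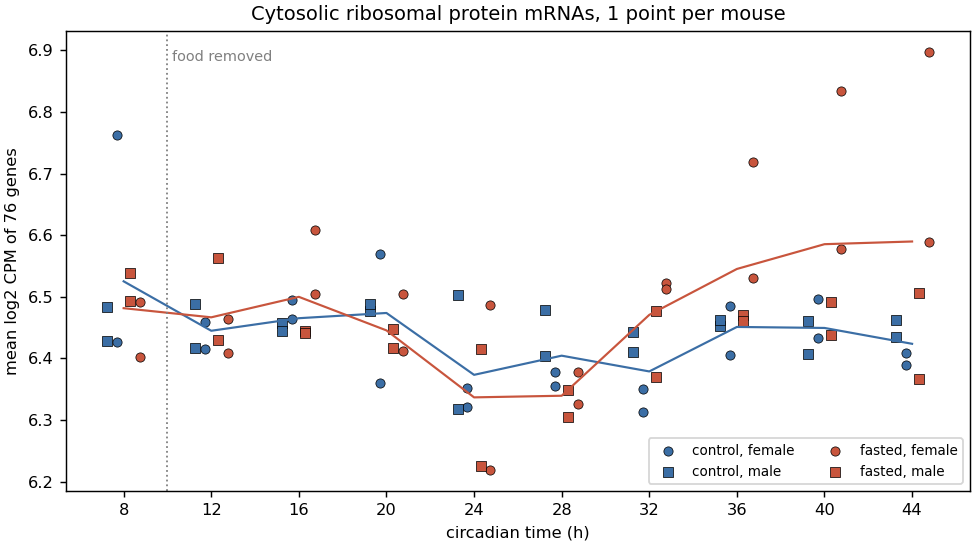
Mean log2 CPM of the 76 genes in each mouse against circadian time (blue, control; red, fasted; squares, males; circles, females; lines, mean of 4 mice; dotted line, food removal). Fasted CT40 female 2 and fasted CT44 female 1 are the highest points at 6.83 and 6.90, and the 4 fasted mice of CT28 lie between 6.31 and 6.38.

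The difference between the late and the early effect was tested over the same phases 1 day apart, taking CT36, CT40 and CT44 against CT12, CT16 and CT20. It was positive in 68 of the 76 genes, with 35 passing upward (9.91% of all genes) and 0 downward (11.3%), and its median was 0.15 (log2), against -0.02 over all genes. By limma-voom 34 and 0 passed, and 1 gene was downward at an unadjusted p under 0.05 by edgeR. Rplp2 had the smallest p (0.39, SE 0.078, adjusted p = 0.000263), followed by Rps27 (0.33, adjusted p = 0.00102) and Rpl14 (0.27, adjusted p = 0.00107). In the small subunit 19 of 30 passed and in the large subunit 16 of 46. Without fasted CT40 female 2 and fasted CT44 female 1, the median was 0.10, against -0.02 over all genes. With library totals 39 genes passed upward and 0 downward (9.95% and 9.2% of all genes). The count upward was 2 without the males numbered 1, 1 without the males numbered 2 and 14 without the females numbered 1. In the same contrast, 5 of 6 Kupffer cell, 5 of 5 erythroid, 3 of 6 stellate cell and 1 of 6 sinusoidal endothelial markers were lower, with none higher. Of 6 hepatocyte markers 1 was higher and 2 were lower, and of 5 neutrophil markers 1 was higher and 0 were lower. No cholangiocyte or lymphocyte marker passed by edgeR, with 1 of each lower at an unadjusted p under 0.05. The part of these markers in the result was not tested.

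Fasting had a more positive effect on these mRNAs in females than in males. Taken within females, 48 of the 76 genes were higher in fasted livers (27.7% of all genes) and 3 were lower (30.7%), with a median of 0.11. Within males, 8 were higher (22.1%) and 17 lower (24.3%), with a median of -0.02. The difference itself, female minus male effect, was positive in 74 of the 76 genes, with 28 passing upward (5.35%) and 0 downward (7.02%), and its median was 0.14, against -0.01 over all genes. By limma-voom the counts were the same, and 0 genes were downward at an unadjusted p under 0.05 by edgeR. With 1 male left per group, 0 genes passed upward without the males numbered 1 and 1 without those numbered 2, against 23 and 31 without the females numbered 1 or 2. The effects of the sexes kept a similar order across genes, with a Pearson r of 0.775 over the 76 genes of these libraries. Rps27 and Rps28 were among the highest in both sexes, and Rps2 and Rpl35a among the lowest.

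Rpl41 had the smallest p for this difference. Females went from 164.4, 184.0 and 218.1 CPM (lowest, median and highest of 18 controls from CT12 on) to 161.2, 190.0 and 236.3 when fasted, and males from 178.3, 212.4 and 239.6 to 161.7, 185.4 and 216.1. The groups overlapped in both sexes, and the difference in effect was 0.21 (SE 0.046, adjusted p = 0.00241). For Rps19, which is often mutated in Diamond-Blackfan anaemia, the female median went from 72.95 to 88.70 CPM and the male one from 78.12 to 79.89, a difference in effect of 0.23 (adjusted p = 0.00567). Rpl22 was 1 of the 2 genes with the opposite sign, with a change of 0.18 in males and 0.11 in females, and its difference did not pass.

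With all libraries in, the spread between mice of 1 group was wider among females. The SD of the mean log2 CPM of the 76 genes between the 2 mice of a group was 0.123 in fasted females and 0.0682 in fasted males. In controls it was 0.0929 in females and 0.0513 in males. The control females include control CT8 female 2, at 6.76 beside 6.43 in female 1 of its group. The fasted females include fasted CT40 female 2 (6.83, with 6.58 in female 1) and fasted CT44 female 1 (6.90, with 6.59 in female 2). The SD was not recomputed without these libraries. Without fasted CT40 female 2 and fasted CT44 female 1, the median female minus male effect of the 76 genes was 0.105, against -0.01 over all genes. Without control CT8 female 2 these medians were 0.139 and -0.002. With library totals 50 genes passed upward and 0 downward (6.24% and 4.47% of all genes). The 6 cholangiocyte markers summed to 3.29 to 10.99 CPM in fasted females and 5.03 to 18.64 in fasted males from CT12 on. In the same test of the female minus male effect, 1 of 6 hepatocyte markers was higher, and no marker of the other 7 cell types passed by edgeR, with 1 sinusoidal endothelial marker at an unadjusted p under 0.05.

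**Figure D5:**
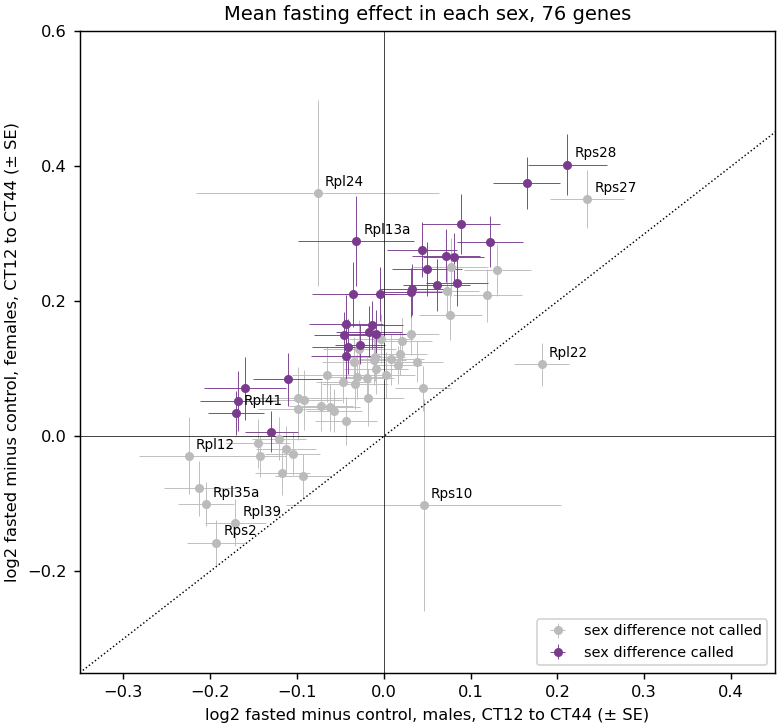
Mean fasting effect of each of the 76 genes in males (x axis) and in females (y axis), as log2 fasted minus control from CT12 to CT44 with SE bars, and a dotted line where both are equal. All but 2 genes lie above the line, and purple marks the 28 whose sex difference passed.

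In fasted livers a 24 h cosine beside a linear change was called for 52 of the 76 genes from CT12 to CT44 (47.1% of all genes tested), with peaks between CT13.1 and CT19.9 and a median at CT14.6. These times span little more than 1 cycle, so a dip at CT24 to CT28 and a daily rhythm cannot be told apart. The mean log2 CPM of the 76 genes had its lowest group means there, 6.34 at CT24 and 6.34 at CT28. With library totals 17 genes were called, and without the females numbered 2 there were 6, against 27 to 50 without the other mice.

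The rhythm differed between fasted and control livers for 9 of the 76 genes (23.2% of all genes tested): Rpl22, Rps29, Rps21, Rplp1, Rps26, Rpl28, Rps2, Rpl23a and Rpl31. For Rpl22 the size of the difference was 0.34 (peak to trough, log2, adjusted p = 0.000552), and its fasted rhythm, at 0.15, did not pass (adjusted p = 0.11). Fasted livers held 74.42 to 88.42 CPM of Rpl22 at CT40, near the trough of the controls, which were at 62.05 to 66.45. Rps29 had a difference of 0.24 (adjusted p = 0.00805), and its fasted mean ran from 86.29 CPM at CT12 down to 74.19 at CT28 and 84.21 at CT36, while control means kept between 80.43 and 89.46. Rps21 had 0.29 (adjusted p = 0.0152), with fasted means of 39.36 CPM at CT12 and 30.96 at CT28. Without fasted CT40 female 2 and fasted CT44 female 1, 18 genes were called, and 1 without the males numbered 1, the males numbered 2 or the females numbered 2.

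Within the transcripts, a table of counts per exon bin was tested for a change in the share of each bin. CT40 was left out, which left 32 libraries per treatment. The reason was that 3 fasted CT40 columns of that table matched another library of the gene table better than their own. Which table names these libraries rightly was not tested, and the gene results at CT40 follow the names in the gene table. A change in bin use was called for 39 of the 76 genes (15.2% of all genes tested). This test takes the spread from a trend over bins, not from the spread of each bin between mice. The leading bins carried small and very variable shares. In 14 of the 39 genes the leading bin held under 1% of the counts of the gene, in all 39 the shares of fasted and control libraries overlapped, and in 5 their means differed by more than 1 SD. The most significant was Rps26, whose bin 7 held 5.44% ± 2.70 in controls (SD, n = 32, range 0.0531 to 9.69) and 3.76% ± 3.38 in fasted livers (range 0.0138 to 8.74). Two-sided permutation tests over libraries gave p = 0.0327 for this bin and p = 0.0831 for bin 1 of Rps15, which came next in the bin test. For bin 2 of Rpl14 the permutation p was 0.00565. These bins were picked by their p in the bin test of the same libraries, so the permutation p-values are no separate support. Treatment was shuffled without regard to time and sex, and the p-values were not adjusted for the choice of bins. The largest shift that went with a narrow spread was in bin 1 of Rps20, chosen after its values were seen, with 0.923% ± 0.189 in controls and 1.49% ± 0.491 in fasted livers, and it is given with no test. For Rps24 the leading bin, 22 of 32, held 0.264% ± 0.0842 and 0.174% ± 0.0583. Without the males numbered 1 the count was 24, and with at least 10 counts per bin in every library 22. The limma test of bin use called 18 of the 76 genes, 17 of them also among the 39.

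Genes related to the ribosomal proteins were counted from lists. In the mean fasting effect, 29.5% of all genes tested were higher and 32.9% lower. Of the 10 paralogues and fusion genes, 8 could be tested, and 1 rose and 5 fell over the fast. Fau, which makes Rps30 as a fusion with a ubiquitin-like protein, went from a median of 112.7 to 136.2 CPM, and its fasted range of 114.3 to 203.5 overlapped with the control range of 95.99 to 125.3 (0.31, SE 0.023, adjusted p = 5.09e-16). The paralogues Rpl7l1 (-0.30), Rpl22l1 (-0.28), Rpl36al (-0.30), Rps4l (-0.24) and Rps27l (-0.14) fell, while their counterparts Rpl7, Rpl22 and Rps27 rose, Rpl36a passed in neither direction and Rps4x fell. Rpl22l1, kept low by Rpl22 in cells that have it, went from 15.79 to 12.90 CPM. Rpl3l had -0.08 and did not pass. Rpl10l and Rpl39l had a median of 0 CPM. Of the rows named as pseudogenes, 144 of 320 could be tested, and 34 were higher and 3 lower.

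Most translation factors and other genes of the TOP class rose. Of 20 such genes, 18 were higher and 1 was lower (29.5% and 32.9% of all genes). Their median was 0.25, and it reached 0.48 at CT44. Eef2, the elongation factor that moves the ribosome along, went from 1158, 1345 and 1481 CPM in controls (lowest, median and highest of 36) to 1476, 1711 and 2482 in fasted livers, with only a narrow overlap (0.37, adjusted p = 8.22e-17). Eif4b, an initiation factor, rose by 0.46 on the log2 scale, Pabpc1, the poly(A) binding protein, by 0.44 and Eef1a1 by 0.21. Eef1g fell by 0.06 on the log2 scale. Rack1, itself a protein of the small subunit, passed in neither direction (0.04, adjusted p = 0.283), but its effect was higher in females than in males by 0.21 (adjusted p = 0.00915), as for 28 of the 76 genes.

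Genes of ribosome biogenesis were mixed in the mean, with 12 of 30 higher and 7 lower (29.5% and 32.9% of all genes). The sexes differed, with 19 of 30 having a higher effect in females and 0 a lower one (5.35% and 7.02% of all genes). By edgeR, 0 were lower at an unadjusted p under 0.05. These counts were not recomputed with mice left out. Within males 4 were higher and 12 lower, and within females 19 and 2. Bysl, which helps to assemble the small subunit, had a female minus male effect of 0.50 (adjusted p = 0.00051), and Nolc1 had 0.55 (adjusted p = 0.000888). Myc, a transcriptional activator of ribosome production, went from a median of 6.91 to 15.90 CPM (1.14, adjusted p = 1.35e-06), and Eif6, which keeps free 60S subunits apart from 40S, had 0.40. Dkc1, the pseudouridine synthase, fell (-0.37). Of 22 genes of mTORC1 and TOP control, 14 rose and 5 fell. Eif4ebp3, an inhibitor of cap-dependent translation, went from 3.98 to 18.07 CPM (2.43, adjusted p = 4.39e-16), Sesn2, a leucine sensor, from 7.70 to 21.36 (1.61), and Mtor itself from 56.87 to 80.97 (0.47). Sesn3 (-0.52) and Mlst8 (-0.46) fell, and Larp1 had 0.00 (adjusted p = 1). In the mitochondrial ribosome, which is built apart from the cytosolic one, 17 of 78 genes rose and 35 fell.

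Mouse by mouse, the levels of most of the 76 genes moved together. After removing the mean of each treatment, time and sex, the median Pearson r between 2 of the 76 genes was 0.72 over 80 libraries, against 0.119 between mitochondrial ribosomal protein genes. These residuals come from pairs of mice and share library, depth and scaling. They include the libraries that stood apart, and r was not recomputed without those. Rpl13 followed the mean of the other genes most closely (0.945), and the low rows Rps10 (-0.243) and Rpl24 (0.271) least, with Rps2 (0.487) and Rpl22 (0.536) next. The genes outside the 76 with the most similar residuals were Rack1 (0.921), Gm9794 (0.913) and Rps3a1 (0.898), with Npm1 at 0.805. The summed cholangiocyte markers had an r of -0.43 with the mean of the 76 genes, the markers of the other 7 cell types -0.17 to 0.27, and their part in the spread between mice was not tested.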

How the data were processed

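The authors deposited raw counts per gene and per exon bin. Per the labels, reads were trimmed with Trimmomatic, aligned with HISAT2 to GRCm39 and analysed with DESeq2, while the counting program and annotation were not given in the sources used here. Genes were tested with edgeR 4.0.16 in R 4.3.3 (filterByExpr, TMM scaling, quasi-likelihood F-test). The model had 1 mean per combination of treatment, circadian time and sex, fitted to all 80 libraries. Benjamini-Hochberg adjustment ran over the 21187 genes tested, and calls are at 0.05. Rhythms were a 24 h cosine and sine. Exon bins were tested with edgeR diffSpliceDGE (trended dispersion; 5 rows that name no gene, 8.28% to 25.9% of counts, stayed out). Log2 CPM used a prior count of 2. Alternatives used limma 3.58.1, DESeq2 1.42.0, other scalings, filters and left-out mice. Genes named with values were chosen among the 5 largest rises and falls, members with known roles and the 3 smallest p in each further contrast, and a few of them are not reported here. The members and lists were chosen with earlier results of these data known. Each library is 1 mouse, and the p-values of the gene tests measure the spread between these mice. Those of the edgeR exon bin test take the spread from the trend over bins, not from each bin's own values in these mice. No pair of libraries in a group was a duplicate (chi-square per degree of freedom at least 14.8). Transcript lengths and shared words come from GENCODE M21 (GRCm38), another build than the counts.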

Additional observations from a re-analysis of the deposited data

Results flagged for a closer look

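In control CT28, male 2 had the 76 genes at 0.917% of its counts, far enough from the other 3 mice of its group to pass Dixon's test. Over 20 groups of 4 mice and 2 quantities, 40 checks in all, this was the only one to pass, and chance marks about 1 in 20.

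Fasting acted differently in females and males on 28 of the 76 genes, all more positive in females, by the test of the female minus male effect itself (5.35% of all genes upward). Without the males numbered 1 or 2 the count was 0 or 1. Rpl41 had a difference of 0.21 and Rps19 of 0.23 on the log2 scale. It also differed between late and early times for 35 genes (9.91% of all genes upward), all more positive late, with 0.39 for Rplp2, 0.33 for Rps27 and 0.27 for Rpl14. Without the males numbered 1 or 2 this count was 2 or 1. The daily rhythm differed between fasted and control livers for 9 of the 76 genes, a smaller share than the 23.2% of all genes, with sizes of 0.34 for Rpl22, 0.24 for Rps29 and 0.29 for Rps21. That count was 1 without the males numbered 1, the males numbered 2 or the females numbered 2.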

How the results depend on the processing

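Of the counts recomputed for 32 results, 302 were within 1.5 times of the reported count and 117 were not. Values of named genes and medians of the 76 genes were also recomputed, and 711 of them counted as the same. For a named gene this meant the same direction and side of the threshold. For a median it meant a move of less than 0.088, the SD between mice of 1 group. Among named genes 67 values lost the threshold, 13 passed it and 18 turned direction, and 9 medians moved. Depth limited what could be seen of Rpl24 and Rps10, with a median of 22.5 and 64.5 counts per library. Where a count moved, the cause was not tested, other than that fewer libraries enter when mice are left out. Counts are of the 76 genes.

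With plain library totals, the counts moved for the mean effect to 14 higher and 30 lower, at CT16 to 0 and 4, at CT20 to 0 and 37, at CT24 to 23 lower, at CT28 to 0 higher, at CT32 to 1 and 3, at CT36 to 6 and 3, at CT40 to 17 and 8, and at CT44 to 16 and 6. The sex difference moved to 50 higher, the control sex difference to 10 higher and the fasted rhythm to 17, and the mean changes of Rplp0 (-0.030), Rps27a (-0.030) and Rpl36a (-0.069) turned negative. Of all genes, 6.89% were then higher and 18.6% lower at CT16, and 22.6% higher and 14.6% lower in the control sex difference. With upper quartile scaling there were 14 lower at CT20, 2 higher at CT28, 18 at CT32, 28 at CT36, and 10 higher and 5 lower in the control sex difference, and Rpl11 (0.00126) and Rpl10 (0.00068) turned positive. DESeq2 size factors gave 1 lower at CT40 and 2 higher in the control sex difference. Summing pseudogene rows gave 1 lower at CT40 and 0.051 for Rps10. The test for at least 1.5 times gave 0 and 0.

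Without fasted CT40 female 2 and fasted CT44 female 1, counts moved to 1 lower at CT16, 2 higher at CT28, 17 at CT32, 17 at CT40, 18 higher and 4 lower at CT44, 22 and 1 for late minus early, 15 for the sex difference and 18 for the rhythm difference, and Rps10 turned to 0.061. Without control CT8 female 2, they moved to 2 higher at CT28, 1 lower at CT40, 2 higher and 15 lower in the control sex difference, and 13 control rhythms. The control rhythm gave 20 without CT8 and 22 when a linear change was fitted from CT12 on. Males alone gave 13 higher, with Rplp0 (-0.042), Rpl36a (-0.032) and Rpl13a (-0.031) negative and Rps10 (0.046) positive, and females alone gave 3 lower, with Rpsa (0.072), Rpl11 (0.040), Rpl10 (0.024), Rpl41 (0.037) and Rpl3 (0.054) positive. Exon bin use was called for 22 genes with at least 10 counts in every library per bin and for 18 with limma. These alternatives on library totals, the left-out females and the linear change were chosen after seeing the data.

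Leaving out the mice of 1 sex and number in turn gave 19 to 37 higher and 6 to 13 lower in the mean effect. By time the ranges were 0 to 9 lower at CT8, 0 to 2 higher at CT16, 0 to 5 higher and 0 to 16 lower at CT20, 0 to 3 higher and 0 to 6 lower at CT24, 0 to 1 and 1 to 14 at CT28, 0 to 11 higher at CT32, 1 to 33 and 0 to 1 at CT36, 7 to 48 and 0 to 2 at CT40, and 8 to 49 and 0 to 4 at CT44. Late minus early ranged from 1 to 45, the sex difference from 0 to 31, the control sex difference from 0 to 6 higher and 1 to 10 lower, the control rhythm from 2 to 9, the fasted rhythm from 6 to 50, the rhythm difference from 1 to 7 and exon bin use from 24 to 34. The change of Rpl36a ranged from -0.010 to 0.047 and that of Rps10 from -0.175 to 0.0039. The lowest late minus early and sex difference counts came without male 1 or male 2. With 1 male left per group the spread comes from the females, and with 1 female left it comes from the males. Whether this moved the counts was not tested.

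Same-numbered mice did not deviate together (1 of 20 pairs over 0.1, median r 0.00193). With a replicate block, the mean effect had 34 higher and 14 lower, late minus early 33, the sex difference 26, the fasted rhythm 50, the control rhythm 6, the rhythm difference 9 and exon bin use 38, so the block changed no count by over 1.5 times.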
